A study of Mus musculus with 21 samples.

Results

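The cation-chloride cotransporters described here are 4 mouse genes of the Slc12a family, *Slc12a2* (NKCC1), *Slc12a4* (KCC1), *Slc12a5* (KCC2) and *Slc12a7* (KCC4). They were taken by name from the 52550 genes of the count table, by a rule that uses no measured value, though with earlier results of these data known. All 4 had counts and all 4 passed the filter on low counts, which asked for a CPM, the count scaled to the size of the library, over 1 in every library of some group. Further members of the family that are not named in this text were not analysed here.

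RNA-Seq was performed on 7 groups of C57BL/6 mouse cells with 3 replicate libraries each, 21 in all. Spiral ganglion neurons (SGNs), the neurons that carry sound information from the cochlea to the brainstem, were picked by hand as tdTomato+ cells at 5 ages (E15.5, P1, P8 and P14, then P30 as the oldest) from mice in which ShhCre/+ had switched on a reporter (Rosa26-CAG-loxp-stop-loxp-tdTomato/+). Hair cells (HCs), the sensory cells of the inner ear, were collected at P12 from Atoh1-CreER+ mice with that reporter after tamoxifen at P0 and P1, and they included both cochlear and vestibular HCs. The study's methods name flow sorting of tdTomato+ cells for HCs, whereas the labels name manual sorting. Glial cells were picked at P8 from the ganglion area of vGlut3-iCreER/+ mice with that reporter after tamoxifen at P2 and P3. All 7 groups therefore carried Cre and the reporter, and each group is defined by what its Cre line labels and by the dissection. Libraries were made from 69 to 195 cells for SGNs, 86 to 125 for glia and 1200 for HCs. In such bulk samples, fewer cells of a type and less RNA per cell cannot be told apart. The sources do not say whether replicates came from separate animals, so p-values measure the spread between these libraries.

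NKCC1 carries sodium, potassium and chloride into the cell, and the KCC proteins carry potassium and chloride out of it. In neurons the balance between NKCC1 and KCC2 sets the chloride concentration, and with it whether GABA and glycine depolarize or inhibit. Kinases of the WNK family act through SPAK and OSR1 to switch NKCC1 on and the KCCs off. In the inner ear NKCC1 is known for loading the strial marginal cells that secrete potassium into the endolymph, and KCC4 for taking up potassium in supporting cells below outer hair cells.

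Libraries held 10368240 to 37287489 counts on genes (median 20384100), and a count of 0 allows up to 0.0805 to 0.289 CPM. These limits cover counting error only. They take each count as a separate fragment and would be higher if a count stands for a read. The 3 SGN markers *Slc17a6*, *Slc17a7* and *Lypd1* summed to 37.6 to 601 TPM, a level scaled by gene length and library, in SGN libraries, to 5.88 to 9.71 in HC libraries and to 1.82 to 38.4 in glial libraries. The 4 HC markers summed to 1288 to 1441 TPM in HC libraries against 11.0 to 107 in SGN libraries, and the 3 glial markers to 496 to 629 in glial libraries against 0.386 to 72.7 in SGN libraries. Glia replicate 1 stood apart with an SGN marker sum of 38.4 TPM, just over the lowest SGN library (E15.5 replicate 2), against 5.12 and 1.82 in the other glial libraries. No batch is given in the labels or the table.

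Sequences at the starts of 3 of the genes are shown to place the counted genes on the genome. *Slc12a5* and *Slc12a7* have more than 1 start. *Slc12a4* lies on chromosome 8 (105943590 to 105966097, minus strand, ENSMUSG00000017765.17), *Slc12a5* on chromosome 2 (164960802 to 164999731, plus strand, ENSMUSG00000017740.17) and *Slc12a7* on chromosome 13 (73733094 to 73816754, plus strand, ENSMUSG00000017756.9) (GRCm38, which is mm10). RefSeq (GRCm38.p6) gives *Slc12a5* 2 starts, 164960846 and 164967988, which lie 7142 bases apart, and counts per gene cannot separate transcripts from them. The window around the second start holds the E-box letters CACGTG, read on either strand, 36 bases before the start, and the window around the first holds none. The windows of *Slc12a7* overlap and hold the same letters, 1 base before the RefSeq start 73763660 and 38 bases before its other RefSeq start. Both starts lie inside the gene as GENCODE draws it. The GC box letters GGGCGG, on either strand, occur 6 times in the window of *Slc12a4*, 6 times in each window of *Slc12a7* and 1 time in each of *Slc12a5*. Of 32851 RefSeq windows of the same 300 bases, 7.15% hold CACGTG and 35.7% hold GGGCGG. The stretches are written 5′ to 3′ on the strand of the gene with these letters in capitals where they read on that strand.
Slc12a5, second start (chr2:164967940-164967969, plus): atggcacctgccCACGTGccgggccccgcc
Slc12a7 (chr13:73763647-73763676, plus): ggcaggtgaggtCACGTGgcgggcaagggc
Slc12a4 (chr8:105966148-105966177, minus): cccgcccccgagGGGCGGcccgggGGGCGG
A match describes letters only. Neither the letters GCGGGGGCG of an EGR site, found in 2.91% of windows, nor the left part TTCAGCACC of the RE1 element bound by REST, found in 0.371%, occurred on either strand in the windows of these 3 genes.

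*Slc12a7* (KCC4) was the most abundant of the 4 genes in SGNs at every age. On the TPM scale, which divides counts by gene length and allows levels of different genes to be set side by side, the SGN libraries held between 15.3 and 101 TPM of *Slc12a7* (median 40.2, 15 libraries), between 6.45 and 29.3 TPM of *Slc12a2* (median 14.7), between 0.138 and 3.15 TPM of *Slc12a5* (median 0.975) and between 0 and 4.59 TPM of *Slc12a4* (median 0.522). *Slc12a7* made up 60.6% ± 10.6 (SD, n = 3) of the summed TPM of the 4 genes at E15.5. Its share was 64.4% ± 5.17 at P1 and 60.2% ± 8.19 at P8. It then stood at 76.1% ± 10.7 in P14 libraries and 81.0% ± 5.32 in P30 libraries. In HCs its share was 11.0% ± 3.50 and in glia 7.30% ± 0.769. The lowest share of *Slc12a7* in any SGN library, 51.2%, was above the highest in HCs, 14.7%.

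**Figure D1:**
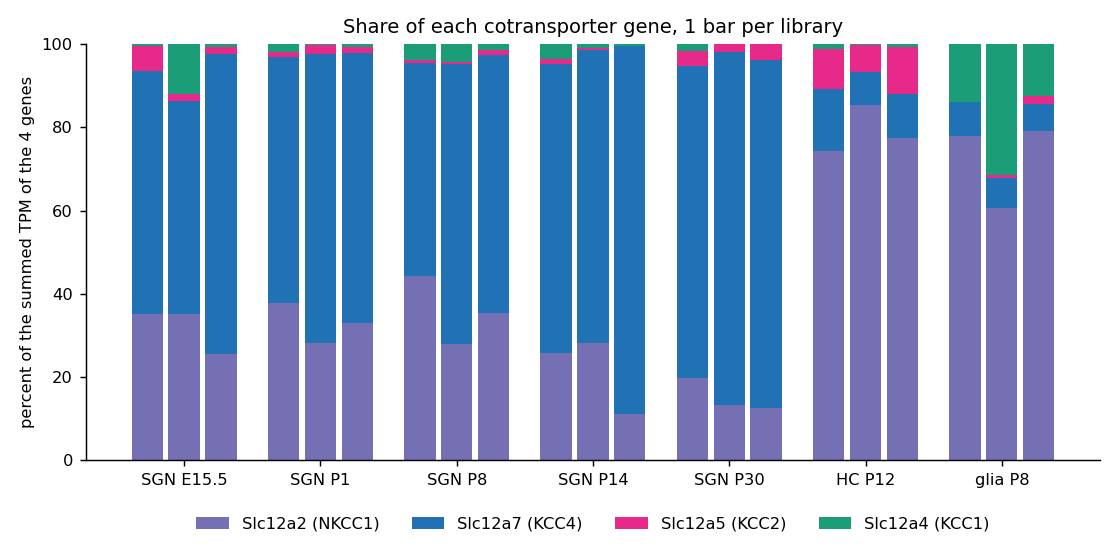
Percent of the summed TPM of the 4 cotransporter genes (vertical axis) taken by each gene, with 1 stacked bar per library and 3 libraries per group. *Slc12a7* takes 51.2% or more of every SGN bar, and *Slc12a2* takes 60.6% or more of every HC and glial bar.

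*Slc12a2* (NKCC1) took the largest share in the other cell types, with 79.1% ± 5.70 in HCs and 72.5% ± 10.3 in glia. In SGNs its share was 31.9% ± 5.52 at E15.5 and 15.3% ± 3.97 at P30. *Slc12a5* (KCC2) took 9.25% ± 2.42 of the sum in HCs, and in SGNs its mean share lay between 0.637% at P14 and 3.15% at P30. *Slc12a4* (KCC1) took 19.3% ± 10.6 in glia, and in SGNs its mean share lay between 0.578% at P30 and 4.43% at E15.5. Summed over the 4 genes, the level was 115 ± 9.26 TPM in HCs, 87.5 ± 17.8 TPM in glia and between 48.0 and 79.8 TPM in the means of the SGN ages. This order is given for TPM only and may differ on other scales. In CPM, *Slc12a2*, the largest part of the sum in HCs and glia, had a mean of 228 in HCs and 351 in glia.

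Between libraries, levels are given below as normalized CPM, which is CPM scaled with the TMM method of edgeR. *Slc12a7* stood at 252, 214 and 311 normalized CPM in the E15.5 libraries, 244, 279 and 280 at P1 (279.7 in the highest), and 287, 401 and 335 at P8. At P14 it stood at 375, 361 and 608, and at P30 at 431, 492 and 610 (609.5 in the highest). All 3 P30 libraries were above all 9 libraries from E15.5 to P8 in *Slc12a7*, and the P14 and P30 ranges overlapped. In HCs *Slc12a7* stood at 57.1, 32.6 and 42.8 normalized CPM and in glia at 62.1, 86.8 and 63.6. The lowest SGN library, at 214, was above the highest HC or glial library, at 86.8. On the TPM scale the lowest E15.5 library (15.3) lay within the range of the HC libraries (9.40 to 15.4). Ordered by mean TPM the groups ran from P14 (62.7) over P30 (48.8), P8, P1 and E15.5 SGNs to HCs (12.5) and glia (6.34), and of these neighbors only HCs and glia did not overlap. In CPM P30 came before P14, and glia before HCs.

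*Slc12a2* (chromosome 18, 57878678 to 57946821, plus strand, GRCm38, ENSMUSG00000024597.10) stood at 77.8, 75.6 and 56.7 normalized CPM at E15.5, 80.4, 58.4 and 73.3 at P1, and 128, 85.3 and 98.3 at P8. It stood at 72.1, 74.0 and 39.1 at P14 and at 58.6, 39.8 and 47.6 at P30. The P8 libraries were the highest among SGNs and did not overlap with those of any other age. In HCs *Slc12a2* stood at 148, 184 and 162 and in glia at 306, 378 and 391, so that SGN, HC and glial libraries formed 3 ranges without overlap. The order of HCs and glia depended on the scale. In TPM the HC mean of 91.5 ± 12.8 lay above the glial mean of 62.3 ± 5.37, and in CPM without TMM the HC mean of 228 ± 23.0 lay below the glial mean of 351 ± 46.3. The SGN ages followed in TPM as P8, P1, P14, E15.5 and P30, and each overlapped with its neighbor in that order.

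*Slc12a5* stood at 15.2, 3.79 and 4.02 normalized CPM at E15.5, 2.60, 5.06 and 4.20 at P1. P8 libraries held 2.18, 1.59 and 4.20, and P14 libraries 4.24, 1.28 and 0.615. At P30 it stood at 12.3, 6.30 and 17.0, which lay above every library from P1 to P14. E15.5 replicate 1, at 15.2, overlapped with P30. This library also held the highest sum of the 4 blood markers, 178 TPM against 0 in the other E15.5 libraries. P1 replicate 1 (33.9 TPM) and P8 replicate 1 (29.7) had the most blood marker TPM of their ages but not the most *Slc12a5*. The library with the most *Slc12a5* of its age had the highest sum of the 4 HC markers at E15.5 (29.3 TPM), P1 (76.9) and P14 (106.7). At P8 (25.1) and P30 (18.8) it had the lowest. The part of blood cells and HCs in these levels was not tested. In HCs *Slc12a5* stood at 22.3, 16.3 and 27.1 normalized CPM. In glia it stood at 0.465, 5.58 and 11.0, and the lowest value belonged to glia replicate 1, the glial library with the most SGN markers. In TPM the order was HCs (10.6), then SGNs at P30, E15.5 and P1, then glia, then SGNs at P14 and P8, and of these neighbors only HCs and P30 did not overlap, which held in TPM but not in normalized CPM. These levels rest on 10 to 370 counts per SGN library, 378 to 676 per HC library and 9 to 114 per glial library.

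*Slc12a4* was highest in glia, at 36.0, 129 and 40.5 normalized CPM. In HCs it stood at 1.48, 0.300 and 0.923. In SGNs it stood at 0.668, 17.1 and 1.07 at E15.5 and 2.83, 0.316 and 0.891 at P1. P8 libraries held 7.28, 8.77 and 2.50. The values were 6.43, 1.70 and 0.860 in P14 libraries and 3.15, 0.219 and 0 in P30 libraries. In TPM glia (18.0) came before P8 SGNs (2.48) without overlap, and the other neighbors in the order (E15.5, P14, HCs, P1 and P30) overlapped. P30 replicate 3 had 0 counts, which allows up to 0.120 CPM if each count is a separate fragment. The gene overlaps exons of *Gm16156*, an antisense gene on the opposite strand, and the strand setting of the counting is not stated, so its counts are uncertain.

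The levels of *Slc12a4* in SGN libraries are set beside the summed TPM of 5 Schwann cell myelin markers (*Mbp*, *Pmp22*, *Mag*, *Prx* and *Egr2*). That sum was 792, 585 and 383 in the P8 libraries, 584, 129.6 and 103.6 at P14 and 161.7, 43.4 and 5.46 at P30, against 2235 to 2884 in glia. Within P14 and within P30 the library with the most *Slc12a4* also had the most myelin marker TPM. At P1 replicate 2 had the most myelin marker TPM (108.5) and the least *Slc12a4*, and replicate 1, with the most *Slc12a4*, had 48.2. At P8 replicate 2 had the most *Slc12a4* and replicate 1 the most myelin marker TPM, while replicate 3 had the least of both. At E15.5 the library with 17.1 normalized CPM had a myelin sum of 50.1, between 35.3 and 92.9 in the others. All 3 glial markers were over 1 TPM in each P8 SGN library. The summed TPM of 5 mesenchyme markers was highest in the library with the most *Slc12a4* at P1 (124.9), P14 (70.0) and P30 (21.3), but not at E15.5 (22.9, against 31.5 in replicate 1) or P8 (29.2, against 71.7 in replicate 1). The part of glial and mesenchymal RNA in the SGN levels was not tested.

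**Figure D2:**
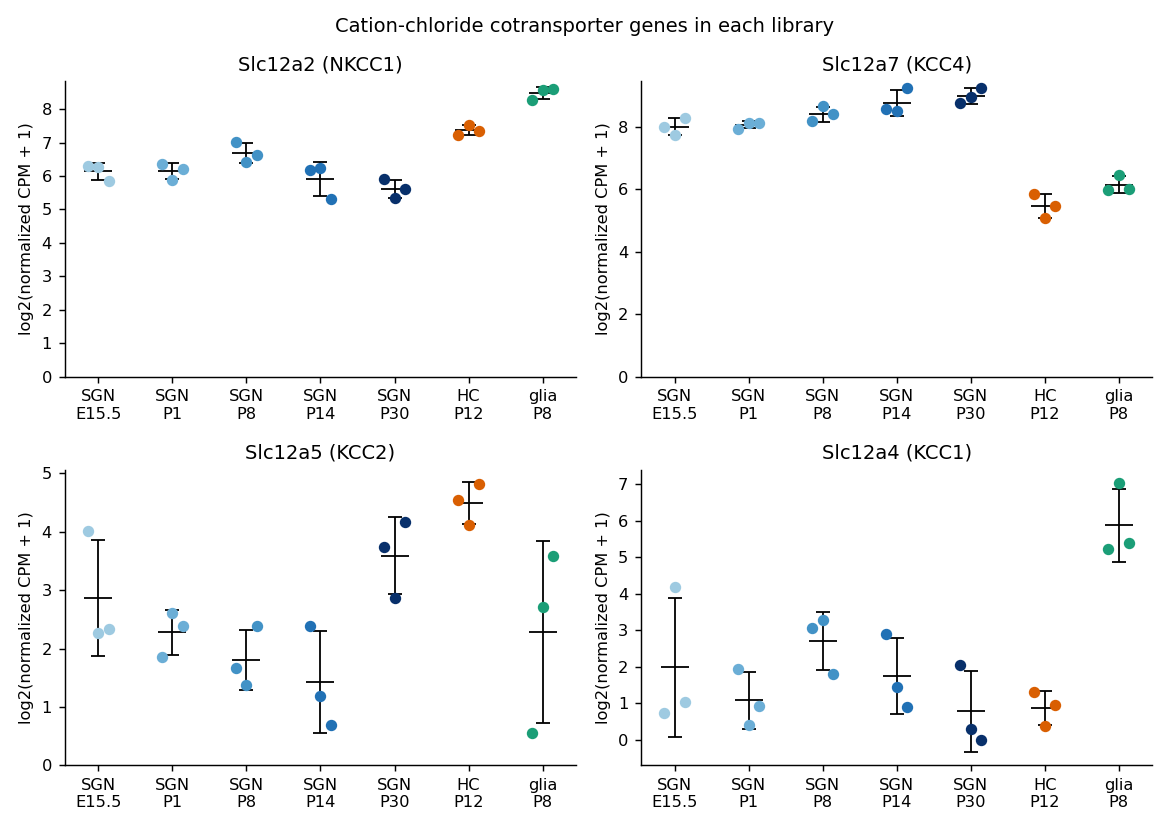
Level of each cotransporter gene in every library as log2(normalized CPM + 1) (vertical axis, a log scale that differs between panels), by group, with 1 point per library, the mean as a long bar and ± 1 SD as whiskers (n = 3). *Slc12a7* is lower in all 6 HC and glial libraries than in all 15 SGN libraries, and *Slc12a2* is higher in them.

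The first question was whether the cotransporter genes changed as SGNs matured. Comparisons of ages used limma-voom on the 15 SGN libraries and 15113 genes, two-sided, with Benjamini-Hochberg (BH) adjustment over all genes tested, and a gene was called at an adjusted p under 0.05 and a change over 2-fold. *Slc12a4* passed the filter in these libraries through the P8 group. By this rule 0 of the 4 genes were called between E15.5 and P1 (8.26% of all genes were), between P1 and P8 (7.44%), between P8 and P14 (0.536%), between P14 and P30 (0.0596%) and between E15.5 and P30 (34.6%). At an unadjusted p under 0.05 the counts were 0, 1, 1, 1 and 1 of 4, and edgeR and DESeq2 called 0 of 4 in each of these comparisons. The share of all genes at these settings was not computed, so these counts cannot be set against it.

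A moderated F test across the 5 ages, which chooses no pair of ages, passed an adjusted p of 0.05 for 3 of the 4 genes, where 37.8% of all genes passed. The limma BH-adjusted p was 0.0048 for *Slc12a7*, 0.030 for *Slc12a2*, 0.035 for *Slc12a5* and 0.20 for *Slc12a4*. *Slc12a7*, the KCC that leads in SGNs, was 0.94 higher on the log2 scale at P30 than at E15.5 (standard error (SE) 0.21, 95% interval 0.50 to 1.38, limma BH-adjusted p = 0.0020). That difference passed the p threshold and lay just under 2-fold. Over 9 alternative fits, those leaving out a single library aside, the log2 change of *Slc12a7* ranged from 0.470 to 1.02. The highest adjusted p of these limma, edgeR and DESeq2 fits was 0.087, so passing the p threshold depended on the fit. Each of its 4 steps was positive, from 0.06 to 0.36, and none passed the test. Between E15.5 and P1 the sign of its step turned with library size scaling (-0.08) and with DESeq2, so no direction is given for it.

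*Slc12a2*, the chloride importer, had a log2 change of 0.54 from P1 to P8 (SE 0.23, 95% interval 0.05 to 1.03, limma BH-adjusted p = 0.15) and of -0.75 from P8 to P14 (SE 0.25, interval -1.28 to -0.22, limma BH-adjusted p = 0.20). From E15.5 to P30 its log2 change was -0.52 (SE 0.28, interval -1.11 to 0.07). None of these passed the test. Over 9 alternative fits, those leaving out a single library aside, the *Slc12a2* change from E15.5 to P30 ranged from -0.990 to -0.469. The lowest adjusted p of these limma, edgeR and DESeq2 fits was 0.0091, but each change was under 2-fold and not called.

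*Slc12a5*, the chloride exporter known for its rise in maturing central neurons, had log2 changes of -0.64, -0.62 and -0.55 over the first 3 steps, with SEs of 0.67 to 0.91. From P14 to P30 its log2 change was 2.74 (SE 0.80, 95% interval 1.05 to 4.44, unadjusted p = 0.0033 by limma across all genes, limma BH-adjusted p = 0.33). The 3 P30 libraries were higher than the 3 P14 libraries, and only 9 of 15113 genes were called at this step. From E15.5 to P30 the log2 change was 0.94 (SE 0.58, interval -0.28 to 2.15, limma BH-adjusted p = 0.20). *Slc12a4* had log2 changes between -2.86 and 2.47 over the steps with SEs of 1.09 to 1.78, and its intervals all included 0.

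The ratio of KCC2 to NKCC1 within a library does not depend on the scaling between libraries. It was taken as log2 of the counts per length of *Slc12a5* over those of *Slc12a2*, with 0.5 added to each count. The ratio was -2.55, -4.50 and -4.00 at E15.5 and -5.13, -3.71 and -4.31 at P1. P8 libraries gave -6.05, -5.92 and -4.73 and P14 libraries -4.27, -6.02 and -6.11. At P30 it was -2.45, -2.84 and -1.67. It was below 0 in every library, so *Slc12a2* was above *Slc12a5* per length at every age.

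The mean log2 ratio was -3.68 ± 1.02 at E15.5 and -4.39 ± 0.713 at P1 (SD, n = 3). It was -5.57 ± 0.726 in P8 libraries, -5.47 ± 1.04 in P14 libraries and -2.32 ± 0.596 in P30 libraries. It differed among the 5 ages (permutation test of the age labels, 15 libraries, 100000 resamples, p = 0.0047). From P14 to P30 the mean ratio differed by 3.15 without overlap (two-sided exact permutation test, p = 0.1, the smallest that 3 against 3 allows). E15.5 and P30 differed by 1.36 (exact permutation p = 0.2). In HCs the ratio was -2.92, -3.69 and -2.77, and in glia it was -9.48, -6.26 and -5.34. All 3 HC libraries were above all 3 glial libraries.

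The ratio of KCC4 to NKCC1 was described after its values were seen and was not tested. It was above 0 in all 15 SGN libraries, with means of 0.93 ± 0.504 at E15.5 and 0.97 ± 0.327 at P1 (SD, n = 3). Its means were 0.77 ± 0.532 for P8, 1.92 ± 0.940 for P14 and 2.44 ± 0.449 for P30. It was below 0 in all 6 other libraries, with -2.89 ± 0.560 in HCs and -3.31 ± 0.252 in glia.

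**Figure D3:**
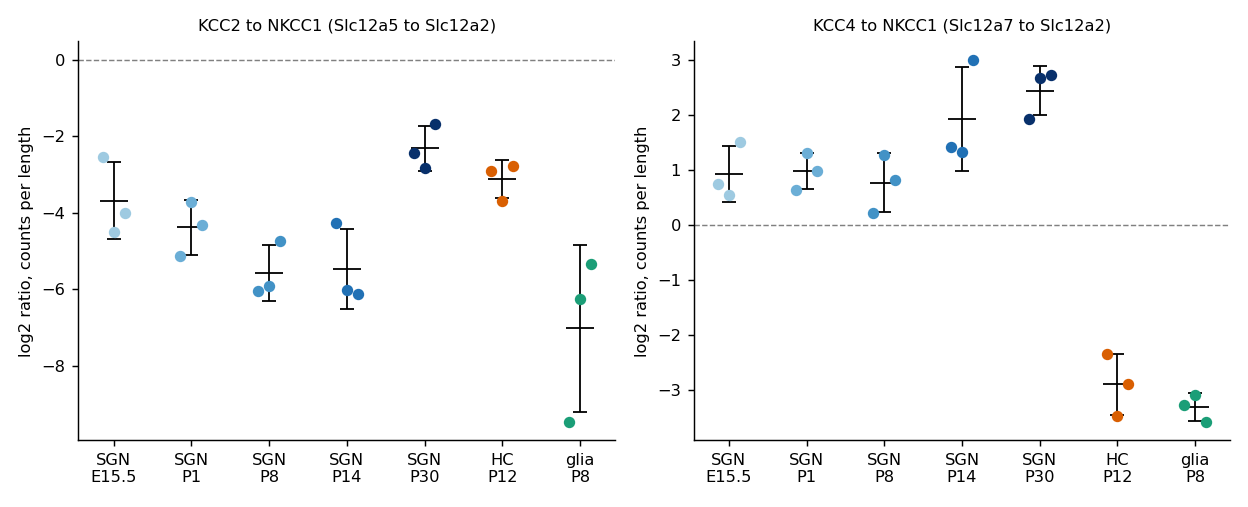
Log2 ratio of counts per length of *Slc12a5* (left) and of *Slc12a7* (right) to *Slc12a2* in each library by group, with the mean as a long bar, ± 1 SD as whiskers (n = 3) and a dashed line at equal levels. The left ratio is below 0 in every library and its P30 mean is -2.32, and the right ratio changes side between SGNs and the other cells.

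The second question was where the genes stood in SGNs against HCs and glia. These comparisons used limma-voom on all 21 libraries and 17531 genes, and a gene was called at a BH-adjusted p under 0.01 and a difference over 4-fold, after the study's methods. Log2 differences are SGN minus the other cell type. They share libraries with each other and are not independent. The median gene lay 0.22 higher in SGNs in both comparisons with glia and 0.14 higher in HCs than in glia, and the glial differences below are to be read against that shift.

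*Slc12a7* was higher in SGNs than in both other cell types. The mean of the 5 SGN ages was 3.03 higher on the log2 scale than HCs (SE 0.29, 95% interval 2.44 to 3.62, limma BH-adjusted p = 1.4e-08), or 8.17-fold. It was 2.32 higher than glia (SE 0.28, interval 1.73 to 2.91, limma BH-adjusted p = 1.0e-06), or 4.99-fold. With the nearest age the log2 differences were 3.34 for P14 SGNs against P12 HCs (SE 0.31, limma BH-adjusted p = 4.6e-08) and 2.29 for P8 SGNs against P8 glia (SE 0.31, limma BH-adjusted p = 6.7e-06). HCs and glia had a log2 difference of -0.71 (interval -1.53 to 0.10, limma BH-adjusted p = 0.15).

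*Slc12a2* was lower in SGNs. The mean of the SGN ages lay 2.35 below glia on the log2 scale (log2 difference -2.35, SE 0.16, interval -2.68 to -2.03, limma BH-adjusted p = 1.2e-10) and was called. Against HCs the log2 difference was -1.27 (SE 0.17, interval -1.62 to -0.93, limma BH-adjusted p = 1.6e-06), which passed the p threshold and lay under 4-fold. With the nearest ages the log2 differences were -1.45 for P14 SGNs against HCs and -1.76 for P8 SGNs against glia, both under 4-fold with adjusted p-values of 9.0e-05 and 1.1e-06 by limma. With library size alone as the scaling, the P14 difference reached -2.16 and was called. HCs lay below glia with a log2 difference of -1.08 (SE 0.19, limma BH-adjusted p = 0.00015), which was not called and which, as given above, has the other sign in TPM.

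*Slc12a5* was lower in SGNs than in HCs, with a log2 difference of -2.45 for the mean of the ages (SE 0.45, interval -3.38 to -1.52, limma BH-adjusted p = 9.4e-05). For P14 SGNs the log2 difference from HCs was -3.74 (SE 0.88, interval -5.56 to -1.92, limma BH-adjusted p = 0.0015), and without P14 replicate 3 it was -3.19 with an adjusted p of 0.012 by limma, above the threshold. P30 SGNs, the age with the most *Slc12a5*, had 1.79 ± 0.345 TPM against 10.6 ± 2.88 in HCs, with no overlap. In normalized CPM the means were 11.9 ± 5.37 and 21.9 ± 5.44 and the groups overlapped, since P30 replicate 3 (17.0) lay above HC replicate 2 (16.3). Against glia no direction could be given, because the log2 difference of the mean of the SGN ages was 0.58 (SE 0.79, limma BH-adjusted p = 0.57) and -0.97 without glia replicate 1. P8 SGNs and P8 glia had a log2 difference of -0.12 (interval -2.18 to 1.94).

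HCs had more *Slc12a5* than glia, with a log2 difference of 3.04 (SE 0.82, interval 1.33 to 4.74, limma BH-adjusted p = 0.0050). Without glia replicate 1 it was 1.48, and the adjusted p was then 0.085 by limma. It was also above 0.01 without HC replicate 1 (log2 difference 2.99, limma BH-adjusted p = 0.010487) and without HC replicate 3 (2.82, limma BH-adjusted p = 0.017).

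*Slc12a4* was higher in glia than in either other cell type. The mean of the SGN ages had a log2 difference of -5.12 from glia (SE 0.61, interval -6.38 to -3.85, limma BH-adjusted p = 7.1e-07), and HCs one of -6.16 from glia (SE 1.26, interval -8.78 to -3.55, limma BH-adjusted p = 0.00050). For P8 SGNs the log2 difference from glia was -3.26 (SE 0.80, interval -4.92 to -1.60, limma BH-adjusted p = 0.0025). That call was lost without P8 replicate 1 (-3.47, limma BH-adjusted p = 0.010026) and without P8 replicate 3 (-2.77, limma BH-adjusted p = 0.013). Against HCs the SGN mean had a log2 difference of 1.04 with an interval from -1.62 to 3.71.

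In counts, the mean of the SGN ages against HCs called 2 of the 4 genes, *Slc12a7* higher and *Slc12a5* lower, where 26.8% of all genes were called. Against glia 3 of the 4 were called, *Slc12a7* higher and *Slc12a2* and *Slc12a4* lower, where 24.7% of all genes were (14.3% higher and 10.4% lower). P14 SGNs against HCs called 2 of 4 (23.1% of all genes), P8 SGNs against glia 2 of 4 (20.9%) and HCs against glia 2 of 4 (24.4%).

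**Figure D4:**
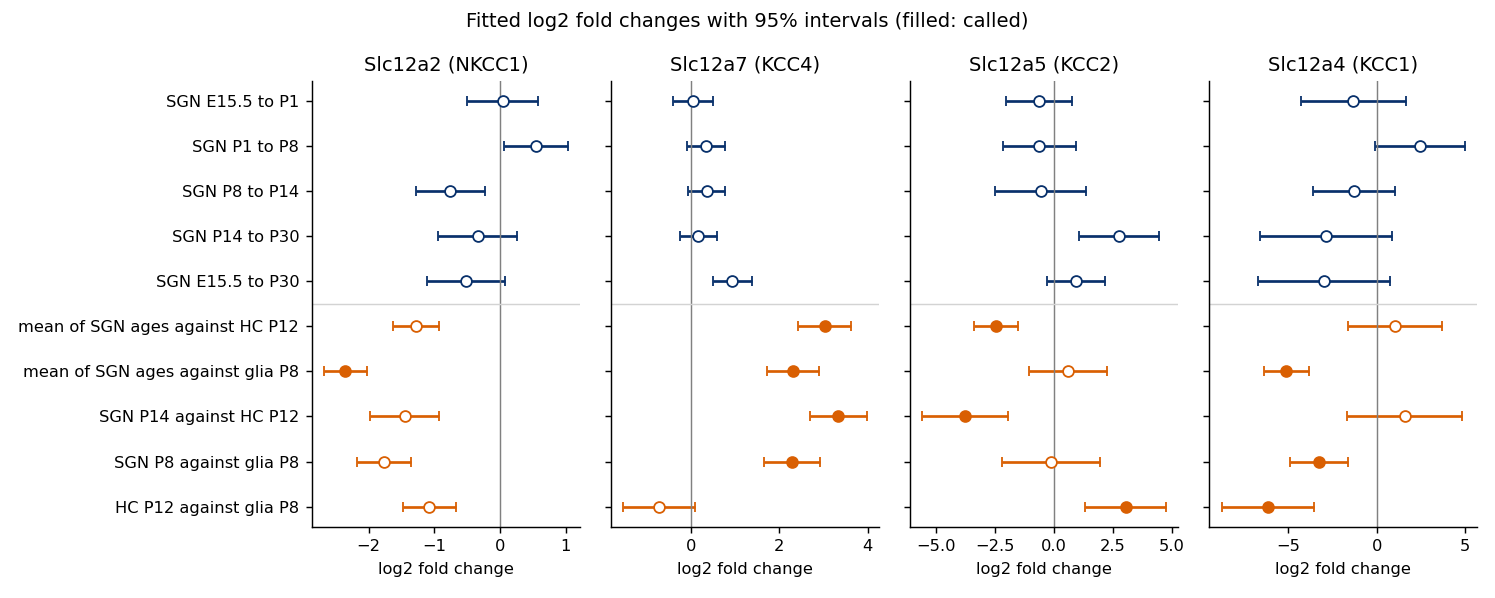
Fitted log2 fold change (horizontal axis, a scale that differs between panels) of each cotransporter gene in 10 comparisons, with 95% intervals from limma-voom. Filled points were called, and all 20 points of the 5 age comparisons (blue) are open, while *Slc12a7* is called in 4 of its 5 cell type comparisons (orange).

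Markers of other cells are given beside these differences. *Kcne1* and *Bsnd*, markers of strial marginal and vestibular dark cells, which use NKCC1 heavily, had 0 counts in every HC and glial library, and *Esrrb* had 0 to 2 counts in HC and 2 to 6 in glial libraries. *Kcnq1*, of the same list, had 32 to 83 counts in HC libraries and 0 to 5 in glia and was higher in HCs (log2 difference 4.63, SE 1.37, limma BH-adjusted p = 0.0089). The sum over these 4 markers was 1.18 to 3.17 TPM in HCs, 0.0322 to 0.105 in glia and 0.0214 to 16.9 in SGN libraries. In SGN libraries *Esrrb* reached 15.4 TPM, *Kcnq1* 2.04, *Kcne1* 0.0948 and *Bsnd* 0.0366. The study lists *Esrrb* among genes that rise in SGNs from E15.5 to P1, so the SGN sum is not specific to marginal or dark cells. The 5 cochlear supporting cell markers (*Fgfr3*, *Otog*, *Otogl*, *Epyc* and *Gjb6*) were over 1 TPM in all 3 HC libraries and summed to 658 to 719 TPM there, against 0.304 to 117 TPM in SGN libraries and 0.164 to 17.0 in glia. Most of the HC sum was *Otog* (mean 558 TPM), then *Otogl* (64.3) and *Gjb6* (57.3), with *Epyc* at 8.54 and *Fgfr3* at 3.53. The mean of the SGN ages was called lower than HCs in *Gjb6* (log2 difference -5.05). It was not called in *Epyc* or *Fgfr3* (limma BH-adjusted p = 0.10 and 0.16). The highest SGN sum, in P8 replicate 1, was mostly *Epyc* (111 TPM). The 5 mesenchyme markers summed to 246 to 414 TPM in glia, 81.7 to 87.8 in HCs and 2.23 to 125 in SGN libraries. In HCs this sum was mostly *Col1a1* (mean 55.2 TPM) and *Col1a2* (26.6). The other markers of the list were low there, with *Col3a1* at 1.26, *Dcn* at 0.959 and *Pou3f4* at 0.291 TPM. The HC libraries were made from cells collected as tdTomato+. The part of supporting cells and mesenchyme in the HC and glial levels of the 4 genes was not tested.

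Other genes of chloride transport were followed in 4 lists written from textbook knowledge. In the WNK-SPAK cascade all 10 genes were tested, and from E15.5 to P30 3 rose and 0 fell, where 18.4% of all genes rose and 16.2% fell. The median log2 change of the list was 0.02, against -0.01 over all genes. *Stk39*, which encodes SPAK, rose by 2.16 on the log2 scale (SE 0.20, limma BH-adjusted p = 4.3e-07), from 39.6 ± 12.3 TPM at E15.5 to 157 ± 31.4 TPM at P30 (156.6 before rounding). Its scaffold genes *Cab39l* and *Cab39* rose by 1.50 and 1.03 on the log2 scale (SEs 0.38 and 0.22). *Oxsr1*, which encodes OSR1, had a log2 change of -0.58 (SE 0.20, limma BH-adjusted p = 0.025), under 2-fold, and *Wnk1* one of 0.26 (SE 0.12, limma BH-adjusted p = 0.11). Over single steps only *Cab39l* was called, with a log2 rise of 1.21 from P1 to P8 (SE 0.33, limma BH-adjusted p = 0.027). Between these ages the summed TPM of the 3 glial markers went from 2.87 to 7.39 up to 17.1 to 39.9 in SGN libraries, and that of the 5 myelin markers from 42.0 to 108.5 up to 383 to 792, and their part in the rise was not tested.

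Among the 10 cascade genes, 1 was higher in SGNs than in HCs, *Klhl3*, an adaptor for the ubiquitin ligase that removes WNK kinases (log2 difference 3.15, SE 0.62, limma BH-adjusted p = 0.00020), and 0 were lower, where 10.5% of all genes were higher and 16.2% lower. Against glia *Cab39l* was lower in SGNs (log2 difference -2.79, SE 0.21) and 0 were higher, where 14.3% of all genes were higher and 10.4% lower. A count of 1 in 10 is no larger than these shares. *Stk39* was 1.03 higher in SGNs than in HCs on the log2 scale, under 4-fold, and had a log2 difference of -0.25 from glia (limma BH-adjusted p = 0.27).

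Of 9 partners and regulators of KCC2, 8 were tested, and *Egr4*, with 0 to 14 counts in SGN libraries, was not. From E15.5 to P30, *Ckb* and *Epb41l1* rose and *Neto2*, *Rest* and *Arhgef7* fell, so that 2 rose and 3 fell of 8, where 18.4% of all genes rose and 16.2% fell. *Ckb*, the brain creatine kinase that binds KCC2, rose by 3.40 on the log2 scale (SE 0.20, limma BH-adjusted p = 5.3e-09), from 81.7 ± 8.21 to 799 ± 225 TPM (798.5 before rounding). *Epb41l1*, the 4.1N protein that ties KCC2 to the cytoskeleton, rose by 2.25 (SE 0.14). *Rest*, which encodes a repressor of neuronal genes, had a log2 change of -1.73 (SE 0.54, limma BH-adjusted p = 0.018) and a mean of 1.53 ± 0.201 TPM at P30. *Neto2*, an auxiliary subunit that binds KCC2, fell by 2.10 on the log2 scale from E15.5 to P1 (SE 0.34, limma BH-adjusted p = 0.0014), and it and *Arhgef7* are named after their values were seen.

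Against HCs, *Epb41l1*, *Grik2*, *Ckb* and *Ntrk2* were higher and *Bdnf* and *Rest* lower in SGNs, 4 and 2 of 8, where 10.5% and 16.2% of all genes were called. *Rest* stood at 48.2 ± 7.78 TPM in HCs and 37.4 ± 23.1 TPM in glia, and the SGN mean had log2 differences of -2.36 (SE 0.33) and -3.44 (SE 0.31) from them. *Bdnf*, a neurotrophin, stood at 112 ± 6.51 TPM in HCs, and SGNs had a log2 difference of -5.60 (SE 0.27, limma BH-adjusted p = 5.0e-13). HCs had the highest mean *Slc12a5* of the 7 groups, and their *Rest* TPM lay within the glial range of 17.2 to 62.7. A relation between the 2 genes was not tested. The order of HCs and glia in *Rest* depended on the scale, since HCs had the higher mean TPM but a log2 difference of -1.08 from glia in the fit (SE 0.34, limma BH-adjusted p = 0.015), under 4-fold and so not called. Against glia *Epb41l1* was higher and *Rest* and *Grik2* lower, 1 and 2 of 8, where 14.3% and 10.4% of all genes were called.

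**Figure D5:**
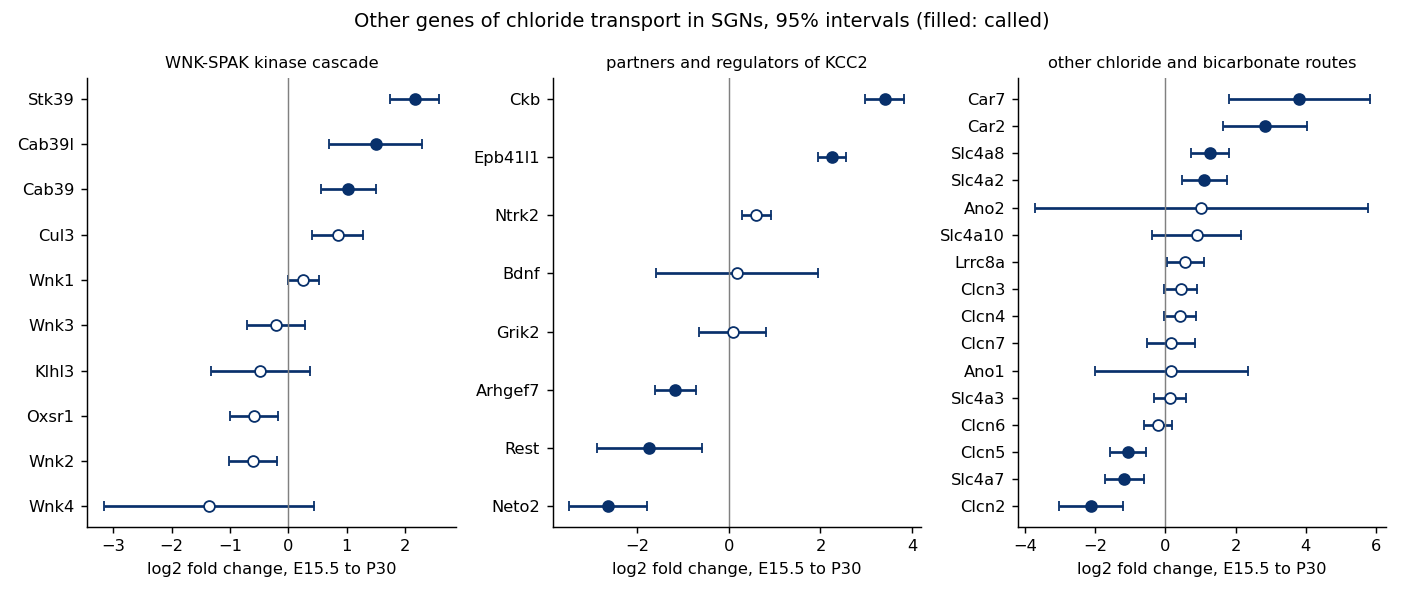
Fitted log2 fold change from E15.5 to P30 in SGNs (horizontal axis) with 95% intervals for the tested genes of 3 lists, where filled points passed an adjusted p of 0.05 and 2-fold. In the WNK-SPAK list 3 of 10 points are filled, in the KCC2 list 5 of 8 and in the list of other chloride and bicarbonate routes 7 of 16. Of all genes tested, 34.6% were called in this comparison in either direction.

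Of 17 genes of other chloride and bicarbonate routes 16 were tested, and *Bsnd* was not. From E15.5 to P30, 4 rose (*Car2*, *Slc4a2*, *Car7* and *Slc4a8*) and 3 fell (*Slc4a7*, *Clcn2* and *Clcn5*), near the shares of all genes (18.4% and 16.2%). The median log2 change of the list was 0.43, against -0.01 over all genes. *Car7*, a carbonic anhydrase of neurons that makes bicarbonate, rose by 4.44 on the log2 scale from E15.5 to P1 (SE 0.93, limma BH-adjusted p = 0.0069), from 0.493 ± 0.400 to 11.4 ± 2.60 TPM, and it was the only gene of the list called over a single step. *Car7* was still lower in SGNs than in HCs, where it stood at 121 ± 28.1 TPM (120.7 before rounding; log2 difference -3.52, SE 0.30). *Slc4a10*, a sodium-driven bicarbonate transporter, was higher in SGNs than in HCs (8.55, SE 1.24, limma BH-adjusted p = 5.85e-06) and than in glia (4.71, SE 1.11, limma BH-adjusted p = 0.0014). HC libraries held 0 to 2 counts of it, so the fitted value depends on the count added before the log. *Clcn5*, a chloride-proton exchanger, was higher in SGNs than in HCs (3.56, SE 0.43), and *Ano2*, a calcium-activated chloride channel, was lower (-3.44, SE 0.78, with 0 to 233 counts per SGN library).

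Of 4 other Slc12 genes 2 were tested. *Slc12a3*, the sodium-chloride cotransporter of the kidney, was higher in SGNs than in HCs (log2 difference 4.36, SE 1.24, limma BH-adjusted p = 0.0056), at low levels of 4 to 190 counts per SGN library and 0 to 5 per HC library. *Slc12a9*, an orphan of the family, had a log2 change of 0.03 from E15.5 to P30 and 2.18 to 11.9 TPM in SGN libraries. *Slc12a1*, the sodium-potassium-chloride cotransporter of the kidney, had at most 16 counts and *Slc12a8* at most 46 in any SGN library, and neither passed the filter.

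Genes with the most similar pattern were sought by Pearson's r of log2(TPM + 1) over the 21 libraries among 11438 genes. The points share library depth and cell type, and r is given as a description. Genes of a library also share its TPM scaling, which can raise r. In the P14 libraries, for example, *Wnk1* ran from 20.9 to 56.3 TPM but stood at 492 ± 38.5 CPM. For *Slc12a2* they were *Shroom2* (r = 0.97), *Rasal2* (0.97) and *Pttg1ip* (0.97). For *Slc12a7* they were *Lsamp* (0.96), an adhesion molecule of neurons, *Clip3* (0.96) and *Rusc1* (0.95). For *Slc12a4* they were *Prdm16*, *Kank2* and the collagen gene *Col5a2* (each 0.93). For *Slc12a5* they were *Kif27* (0.91), *Mogat1* (0.91) and *Myo3b* (0.91), a myosin of HC stereocilia.

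Within the 15 SGN libraries, among 7858 genes, the closest to *Slc12a7* were *Ttc7b* (r = 0.98) and *Nmt1* (0.97). The closest to *Slc12a2* were *Myo10* (0.93), *Scd2* (0.92), a fatty acid desaturase, and *Acaa2* (0.92). The closest to *Slc12a4* were *Gpc3* (0.89), *Islr* (0.88) and *Cd9* (0.85). For *Slc12a5*, which has few counts in SGNs, the highest values were 0.73 for *Onecut2*, 0.68 for *Pcmtd2* and 0.67 for *Pank2*. No gene named for 21 libraries was among those named for the same member over SGNs.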

How the data were processed

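The authors mapped paired-end reads to mm10 with STAR 2.4.0i, counted them on GENCODE vM15 genes with featureCounts and deposited 1 table of unnormalized counts with a length per gene. Strand, multimapping and pair settings are not given in the sources used here. A median of 67.9% of low counts per library were even, so a count may stand for a read and not a fragment. A symbol was matched to 52403 of 52550 genes (GENCODE M21).

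CPM and TPM were computed from counts and deposited lengths. TMM (edgeR 4.0.16) and limma-voom (limma 3.58.1, R 4.3.3) followed the study's methods, with 1 mean per group. The contrasts were tested on simulated data first. DESeq2 1.42.0, edgeR's quasi-likelihood test, other scalings, filters, weights and left-out libraries were alternatives. Permutations, levels and windows used Python 3.11.15. Replicate numbers were checked as pairs and were not treated as such. No pair of libraries was identical.

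Members and lists were chosen with earlier results of these data known. Named genes are the 4 members, *Wnk1*, *Stk39*, *Oxsr1*, *Rest*, up to 4 called genes per list with the largest change, and 3 genes of most similar pattern per member. Other listed genes named in counts were chosen after their values were seen. A few genes that these lists and rules would name are not reported here, and summed marker levels and list counts leave them out.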

Additional observations from a re-analysis of the deposited data

How the results depend on the processing

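Of 692 alternative fits of the 40 comparisons of a member, 651 kept the direction and the call, 24 turned the direction, 13 lost a call and 4 gained one. Under "only the groups compared", *Slc12a4* did not pass the filter in 4 comparisons and had no value. No called difference turned its direction in any fit.

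Directions that turned were of differences that were not called. From E15.5 to P1, *Slc12a2* was at -0.0350 with DESeq2, -0.106 with library size only, -0.0423 with quality weights and -0.000731 with the replicate block, and *Slc12a7* at -0.00136 with DESeq2 and -0.0807 with library size only. *Slc12a5* in the mean SGN against glia was at -0.313 with edgeR and -0.456 with DESeq2, and in P8 SGNs against glia at 0.228 with quality weights. Calls were lost for *Slc12a4* in P8 SGNs against glia with edgeR (-3.47, adjusted p = 0.053) and with only the groups compared (-3.18, limma adjusted p = 0.013). They were lost for *Slc12a5* in HCs against glia with edgeR (1.95), DESeq2 (2.03), quality weights (3.13) and only the groups compared (3.03), with adjusted p-values of 0.083, 0.036, 0.060 and 0.048. Calls were gained for *Slc12a2* in P14 SGNs against HCs with library size only (-2.16) and for *Slc12a7* from E15.5 to P30 with quality weights (1.02). In CPM in place of TPM, the log2 ratio of mean levels was -0.626 for *Slc12a2* in HCs to glia (0.556 in TPM), 1.69 for *Slc12a5* in HCs to P30 SGNs (2.58 in TPM) and -0.131 for *Slc12a7* in P14 to P30 SGNs (0.360 in TPM). The cause was not tested.

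E15.5 replicate 2, P14 replicate 1 and glia replicate 1 were left out together in a fit chosen after seeing the data. *Slc12a4* was then at 0.196 and *Slc12a7* at -0.0988 from E15.5 to P1, and *Slc12a5* at -1.07 in the mean SGN against glia and at 1.48 in HCs against glia (limma adjusted p = 0.073, call lost).

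Leaving out each library in turn gave, from E15.5 to P1, -0.114 to 0.123 for *Slc12a2*, -2.26 to 0.198 for *Slc12a4* and -0.0971 to 0.207 for *Slc12a7*. *Slc12a7* from E15.5 to P30 lay between 0.775 and 1.08 and was called without E15.5 replicate 3 or P30 replicate 1. *Slc12a5* lay between -1.37 and 0.0378 from P8 to P14, between -0.974 and 1.46 in the mean SGN against glia, between -1.68 and 0.754 in P8 SGNs against glia, between -4.59 and -3.19 in P14 SGNs against HCs and between 1.48 and 3.91 in HCs against glia. *Slc12a4* in P8 SGNs against glia lay between -3.69 and -2.71. The permutation p of the KCC2 to NKCC1 ratio lay between 0.0023 and 0.022.

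Libraries with the same replicate number were not treated as pairs, since no comparison had all 3 correlations of deviations over 0.1. For replicates 1, 2 and 3 the correlations were 0.35, 0.071 and 0.155 from P1 to P8. They were 0.32, 0.157 and 0.011 from P8 to P14, and 0.32, 0.21 and 0.061 from P14 to P30. Whether libraries with the same number share a source was not tested. The replicate block changed no call of a member, and the permutation p of the ratio within numbers was 0.018.

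With 3 libraries per group, a step of *Slc12a5* or *Slc12a4*, with SEs of 0.67 to 1.78 on the log2 scale, could be called only if it was several-fold, and at 0 to 370 counts per SGN library smaller changes were not detectable at this depth.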

Other observations

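Pearson's r of log2(TPM + 1) between *Slc12a2* and *Slc12a7* was -0.66 over the 21 libraries and 0.25 over the 15 SGN libraries, and between *Slc12a2* and *Slc12a5* it was 0.54 over the 21 and -0.09 over the 15. Libraries of a group share their cell type, and genes of a library share its TPM scaling. These values therefore describe the libraries and carry no p. Across the SGN libraries, none of the 6 pairs of members reached an r over that of *Slc12a2* and *Slc12a4*, 0.53.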
